A study of Mus musculus with 6 samples.

Results

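The genes described here encode the SR proteins (serine and arginine rich splicing factors, symbols starting Srsf) and the heterogeneous nuclear ribonucleoproteins (hnRNP, symbols starting Hnrnp). They were chosen by symbol from the protein-coding genes of the RefSeq table on chromosomes 1 to 19, which gave 31 of 20560 genes, 11 Srsf and 20 Hnrnp. One of them, Hnrnpa1l2-ps2, carries the symbol of a pseudogene although the table lists it as protein-coding. CHD7, a chromatin remodelling ATPase, and H3K27ac, the acetylation of histone H3 at lysine 27 found at active promoters and enhancers, had been mapped by chromatin immunoprecipitation with sequencing in mouse embryos at E10.5 (embryonic day). All libraries, input included, came from the same kind of cells: green (GFP+) cells sorted from pharyngeal arches 3 to 6 of embryos carrying Wnt1-Cre2 and the mTmG reporter, bred from Wnt1-Cre2 males and mTmG females. CHD7, H3K27ac and input chromatin had 2 libraries each. There was no mutant and no treatment, so the comparisons are between antibodies, between libraries and between these genes and all other genes.

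Wnt1-Cre2 switches the reporter to green wherever the Wnt1 control sequences have once been active, so the sort marks descent from the neural crest and dorsal neural tube and not a present cell state. The labels do not say how many embryos were pooled or whether libraries 1 and 2 of an antibody came from separate sorts, so spread between libraries may be technical. The CHD7 lists held 31425 and 26600 peaks on chromosomes 1 to 19, the H3K27ac lists 23786 and 22244, and the input lists 417 and 475. Read depth is unknown, because the lists hold no read counts. A region below means the merged extent of overlapping peaks with a peak in both libraries of an antibody, of which there were 19712 for CHD7 and 17404 for H3K27ac, and its fold is the enrichment over background that the authors' peak caller gave at the summit, once per library. Of 12 neural crest markers, 3 had an H3K27ac region at a gene end (Sox9, Twist1 and Msx2), while Sox10, Foxd3 and Tfap2a had none. H3K27ac was at 0 of 7 endothelial and 0 of 6 cardiomyocyte markers, at 1 of 5 blood markers (Klf1) and at 2 of 7 epithelial and endodermal markers (Krt8 and Grhl2). Each of these shares, neural crest included, is below the 49.3% of all genes, so the counts do not identify the cells. Mean H3K27ac folds were 2.65 in Sox9, 2.66 in Twist1 and 2.78 in Msx2, beside 4.77 in Klf1, 2.82 in Krt8 and 5.07 in Grhl2. CHD7 was at 3 of 12 neural crest, 3 of 7 endothelial, 1 of 5 blood, 0 of 6 cardiomyocyte and 2 of 7 epithelial and endodermal markers. A region at a gene end is no measure of transcript level.

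SR proteins bind exonic enhancers in pre-mRNA through their RNA recognition motifs, and their arginine and serine rich tails recruit spliceosome components to nearby splice sites. Many hnRNP proteins coat nascent transcripts and often repress the splice sites they cover, so the balance between both families helps to set which exons are included. Most are expressed in nearly every cell type and several control their own level through the splicing of their own transcripts.

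The promoters of these genes were mostly rich in CpG. Of the 31 genes, 29 had a listed transcription start in the RefSeq promoter table of build GRCm38.p6, and Hnrnpll and Hnrnpul2 did not. With 1 value per gene, windows from 250 bases before to 50 bases after the start held 3 to 52 CpG with a median of 32. The median was 15 over the 16457 genes with a window. Genes with several listed starts can also have poorer windows. For Hnrnpf the value is 37, although the stretch from 200 bases before 1 of its starts through the first 20 transcribed held 6. The windows below run from 200 bases before the start and include the first 20 bases of the transcript. Srsf5, Hnrnpm and Srsf6 are shown because they carried the highest H3K27ac folds, Hnrnpa1 and Hnrnpr as 2 of the 3 genes, with Hnrnpl, that hold 4 CCAAT boxes in it, and Hnrnpa1l2-ps2 because it had neither CHD7 nor H3K27ac. Capitals mark every match, on either strand, to CCAAT (read ATTGG on the other strand), TATAAA, CCGGAAGT (bound by ETS factors), GGGCGG (the GC box, read CCGCCC on the other strand), TGACGTCA, CACGTG, GCATGCGC (part of the NRF1 motif), TCTCGCGA (part of the BANP motif) and ACTACAATT (part of the ZNF143 motif), and sequences are from RefSeq, 5′ to 3′ on the gene's strand.
Srsf5 (chr12:80945299-80945518, plus strand): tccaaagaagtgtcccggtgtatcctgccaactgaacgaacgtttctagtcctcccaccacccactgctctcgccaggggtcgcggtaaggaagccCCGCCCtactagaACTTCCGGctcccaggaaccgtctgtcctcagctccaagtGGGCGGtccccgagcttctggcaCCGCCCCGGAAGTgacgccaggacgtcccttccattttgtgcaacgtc
Hnrnpm (chr17:33685439-33685658, minus strand): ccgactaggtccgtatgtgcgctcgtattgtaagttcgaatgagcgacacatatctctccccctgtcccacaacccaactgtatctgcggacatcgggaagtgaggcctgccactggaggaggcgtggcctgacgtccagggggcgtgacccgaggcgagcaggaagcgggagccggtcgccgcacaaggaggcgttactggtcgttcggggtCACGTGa
Srsf6 (chr2:162931308-162931527, plus strand): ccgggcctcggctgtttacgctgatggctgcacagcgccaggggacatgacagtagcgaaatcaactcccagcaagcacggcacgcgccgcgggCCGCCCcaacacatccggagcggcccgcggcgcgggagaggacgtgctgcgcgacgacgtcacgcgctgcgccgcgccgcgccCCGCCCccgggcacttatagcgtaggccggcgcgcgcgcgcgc
Hnrnpa1 (chr15:103240197-103240416, plus strand): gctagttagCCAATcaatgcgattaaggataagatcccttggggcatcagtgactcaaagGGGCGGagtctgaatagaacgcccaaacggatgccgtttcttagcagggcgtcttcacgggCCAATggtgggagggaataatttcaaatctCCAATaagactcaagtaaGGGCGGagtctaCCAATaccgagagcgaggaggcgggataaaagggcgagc
Hnrnpr (chr4:136310742-136310961, plus strand): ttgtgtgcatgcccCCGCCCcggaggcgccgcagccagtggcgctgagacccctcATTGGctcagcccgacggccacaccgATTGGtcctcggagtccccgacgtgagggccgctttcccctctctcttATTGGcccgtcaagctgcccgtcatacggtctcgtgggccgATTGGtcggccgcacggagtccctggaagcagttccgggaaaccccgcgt
Hnrnpa1l2-ps2 (chr15:22714965-22715184, minus strand): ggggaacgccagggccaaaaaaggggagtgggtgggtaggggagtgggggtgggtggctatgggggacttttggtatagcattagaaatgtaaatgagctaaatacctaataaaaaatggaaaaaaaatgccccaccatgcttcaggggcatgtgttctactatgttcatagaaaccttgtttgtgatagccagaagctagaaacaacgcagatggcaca
In the Srsf5 window the second ETS match shares its first base with a GC box, so a single run of capitals covers both. The Hnrnpm window held only the E-box CACGTG, which lies past the transcription start.

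Counted over the full windows of all listed starts, the GC box was in 23 of the 29 genes, beside 50.3% of all genes, and CCAAT in 17, beside 42.3%. The ETS letters were in 5 (Hnrnpd, Hnrnpf, Srsf11, Srsf4 and Srsf5), beside 5.84% of all genes, and the part of the NRF1 motif in 3 (Hnrnph1, Srsf11 and Srsf7), beside 3.99%. The part of the BANP motif was in 3 (Hnrnph3, Srsf10 and Srsf4), beside 1.53%, the E-box in 4, beside 9.01%, and TATAAA in 5, beside 15.0%. TGACGTCA and ACTACAATT were in 0 of these genes, beside 2.63% and 0.608% of all genes. These matches describe letters in a window and are not binding sites.

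CHD7 and H3K27ac were both found at nearly all of these genes. A CHD7 region lay within 1 kb of either annotated end of 29 of the 31 genes, beside 46.2% of all 20560 genes. For H3K27ac the count was 28 of 31, beside 49.3%. In 26 of 31 a CHD7 and an H3K27ac region overlapped at the same end, beside 39.4% of all genes. Measured instead from the listed starts, which exist for 29 of the genes, CHD7 was within 1 kb in 27, beside 47.6% of the 16457 genes with a listed start, and H3K27ac in 28, beside 51.5%. No peak of either input library lay within 1 kb of an end of these genes, and none of their CHD7 or H3K27ac regions overlapped an input peak. With only 417 and 475 input peaks, this says little about these genes. Leaving out regions that overlap an input peak changed the share of all genes with CHD7 only from 46.2% to 46.1%. Keeping only peaks whose −log10 q was 10 or higher left CHD7 at an end of 17 of the 31 genes, beside 11.2% of all genes. The shares over all genes include genes that are silent in these cells, and how far the members' counts go with expression was not tested.

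The folds themselves spanned a wide range and were not high throughout. Hnrnpm, a splicing regulator that binds GU-rich RNA, had CHD7 folds of 7.72 and 6.60 in libraries 1 and 2 (mean 7.16 ± 0.788, SD, n = 2), above 99.4% of all genes with CHD7 at an end. Srsf5, also known as SRp40, followed with 7.14 and 5.66 (6.40 ± 1.05, SD, n = 2), and Hnrnpul1, an hnRNP U-like protein, with 5.92 and 6.22. Hnrnpm was above the other 2 in each library, although its range overlapped that of Srsf5. Srsf5 was above Hnrnpul1 in library 1 and below it in library 2, so the place of Srsf5 among the 3 is not resolved. Srsf7, a shuttling SR protein that also acts in mRNA export, had 5.66 and 5.39, and Srsf6, or SRp55, had 4.83 and 4.81. Srsf4, the longest SR protein, had 5.04 and 4.05, Hnrnpc, which packages nascent transcripts through uridine tracts, had 4.51 and 4.14, and the intronless Hnrnpa0 had 4.37 and 4.39. Both libraries placed each of these 8 genes above 4.

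At the low end the value depended in part on which end was used. Hnrnpd, also called AUF1 and known for binding AU-rich elements of mRNAs, had CHD7 folds of 2.35 and 2.67. Hnrnpu, or SAF-A, a large protein that binds both RNA and chromatin, had 2.46 and 2.68. Hnrnpf, which binds G tracts, had 3.01 and 2.16, and this region lay at its 3′ end. Both had higher CHD7 folds at a listed start inside the annotated gene, 3.87 and 3.66 in Hnrnpu and 3.80 and 3.68 in Hnrnpf. Srsf9 had 2.89 and 2.76. The median of the higher CHD7 region at an end was 3.51 over the 29 genes, beside 3.74 over the 9503 genes of the table with CHD7 at an end. In library 2 alone (without CHD7 replicate 1) the medians were 3.72 and 3.67, so the order of these genes and all genes called was not stable.

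For H3K27ac the order was similar. Srsf5 had folds of 10.1 and 11.2 (10.7 ± 0.781, SD, n = 2), above 99.9% of all genes with H3K27ac at an end, and Hnrnpm had 10.3 and 9.08 (9.71 ± 0.891, SD, n = 2). Srsf6 followed with 9.20 and 9.13. These 3 were above 9 in both libraries, and no other of the 28 genes reached 8 in either. Srsf7 had 7.73 and 7.22, Hnrnpc 7.35 and 6.82, Hnrnpab 7.64 and 6.23, Hnrnpdl 7.56 and 5.84, and Hnrnpk, a KH-domain protein that binds C-rich sequence, 6.53 and 6.15. The lowest were Srsf1, the founding SR protein, with 2.91 and 3.08, the little studied Srsf12 with 3.42 and 4.36, Hnrnpa2b1 with 4.33 and 4.02, and Hnrnpu with 4.10 and 4.37. Srsf1 and Hnrnpu were low at their annotated end, but each had a further, higher H3K27ac region near its listed start. That of Srsf1 had 7.44 and 6.12, with summits 665 and 672 bp past the start. That of Hnrnpu had 5.22 and 4.46, with summits 407 and 711 bp past the start. The median H3K27ac fold was 5.30 over the 28 genes, beside 4.81 over the 10136 genes with H3K27ac at an end. Where −log10 q had to be 10 or higher, the medians were 5.46 and 5.48, so this difference was not stable.

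**Figure D1:**
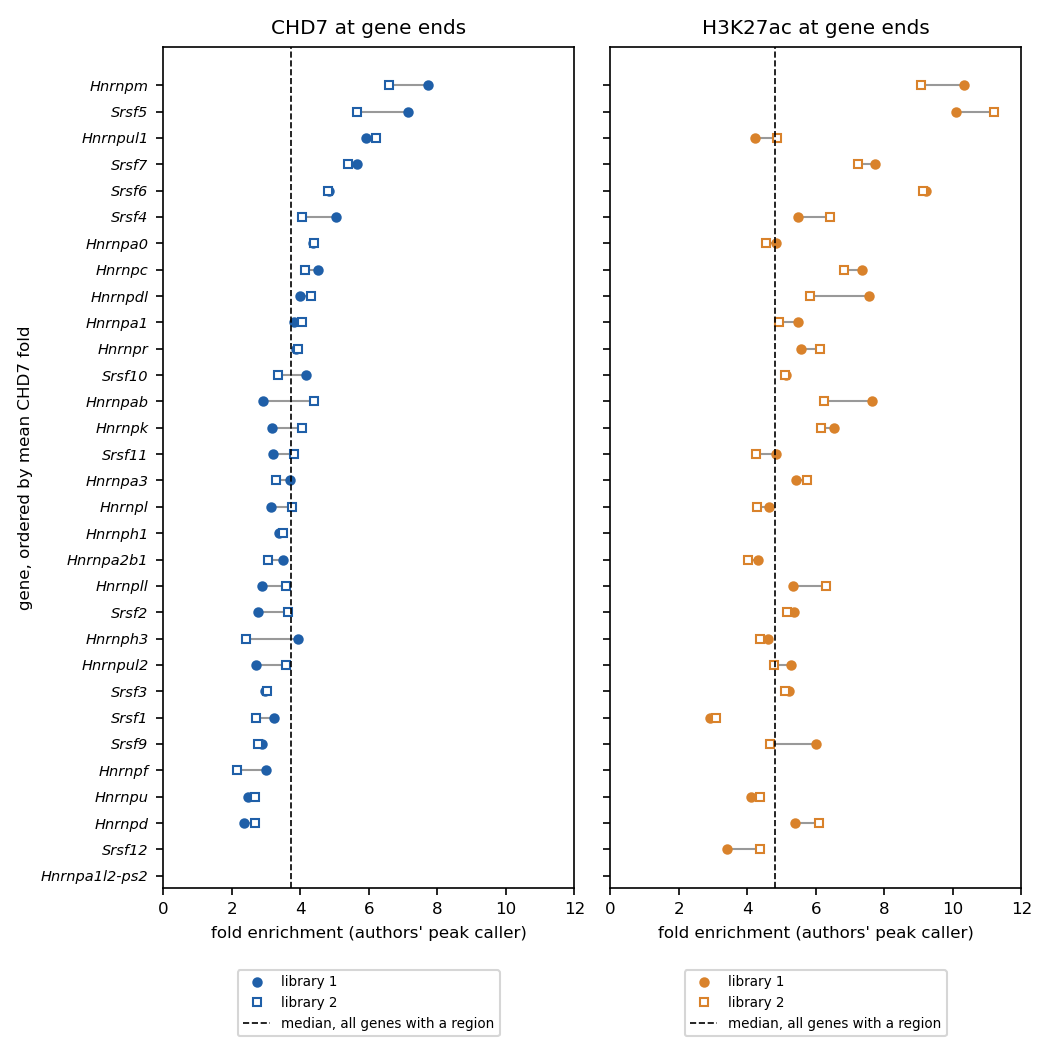
Fold enrichment from the authors' peak caller at the gene ends of the 31 SR and hnRNP genes, ordered by mean CHD7 fold, with CHD7 on the left, H3K27ac on the right, filled circles for library 1, open squares for library 2, and a dashed line at the median of all genes with a region at an end. Hnrnpm and Srsf5 lead both panels, Hnrnpul1 is high at its annotated end for CHD7 only, and Hnrnpa1l2-ps2 has no point.

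Across the 29 genes the CHD7 folds of both libraries had a Spearman rho of 0.66, and across 28 genes the H3K27ac folds had a rho of 0.87, beside 0.59 and 0.77 over all genes called. The libraries differed most for Hnrnph3, with CHD7 folds of 3.94 and 2.42, and for Hnrnpab, with 2.90 and 4.40. Mean CHD7 fold followed mean H3K27ac fold with a rho of 0.58 over the 27 genes with both, beside 0.44 over 8462 genes, where both measures come from the same loci and share their base composition and mappability. Hnrnpul1 departed from this order at its annotated end, with CHD7 above 97.7% of genes and H3K27ac above 41.0%. A higher H3K27ac region of 5.96 and 5.77 lay just past its listed start, more than 1 kb inside that end, and was not ranked. Srsf and Hnrnp genes had median CHD7 folds of 3.64 and 3.49 and median H3K27ac folds of 5.27 and 5.59, with no test between them.

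Few genes lacked a region. Hnrnpa1l2-ps2, 1165 bp long on chromosome 15, had no region of either antibody. It held 2 CpG in the promoter stretch printed above and 3 in the full window, the fewest of the 29 genes. Srsf12 had H3K27ac at its start and a CHD7 peak in library 2 alone, at chr4:33209423-33209832 with a fold of 3.67 and a −log10 q of 5.61, and is therefore not counted for CHD7. Hnrnph1 and Hnrnpf, close relatives that both bind G tracts, had no H3K27ac at an annotated end. All 5 listed starts of Hnrnph1, and 3 of the 4 of Hnrnpf, lie further inside the annotated gene, and the other Hnrnpf start is the annotated end itself. At these inner starts H3K27ac had folds of 5.76 and 5.81, and of 4.22 and 4.66, in Hnrnph1. In Hnrnpf the highest of 3 regions at a listed start had 6.19 and 4.62. The CHD7 counted at an end of both genes lay at the 3′ end. In Hnrnpd both antibodies were at the start without overlapping, CHD7 upstream at chr5:99979373-99979804 and H3K27ac downstream at chr5:99977285-99978948 with folds of 5.39 and 6.10.

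Several 5′ ends lay close to an end, either start or 3′ end, of another protein-coding gene. Such an end was within 1 kb of the 5′ end in 10 of the 29 genes with a strand, beside 15.8% of the 16457 genes: Hnrnph3 with Pbld2, Hnrnpc with Rpgrip1, Hnrnpa1 with Cbx5, Hnrnpm with Marchf2, Srsf7 with Gemin6, Srsf11 with Lrrc40, Hnrnpd with 4930524J08Rik, Hnrnpdl with Enoph1, Hnrnpa2b1 with Cbx3 and Hnrnpul1 with Axl. Hnrnpll and Hnrnpul2, for which no strand was used, had such a neighbour at the end with regions (4933407O12Rik and Ttc9c). A peak at such a place cannot be assigned to one gene. Of the 8 genes of highest H3K27ac above, 5 had an end of another protein-coding gene within 1 kb of their highest region, namely Hnrnpm, Srsf7, Hnrnpc, Hnrnpdl and Hnrnpk, the last beside Rmi1. Srsf5, Srsf6 and Hnrnpab had no such protein-coding neighbour, although Gm20337, which is not listed as protein-coding, ends within 1 kb of the Srsf5 region.

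At the starts, peaks lay on both sides, and few had their summit over the start itself. Of 91 CHD7 summits within 1 kb of a listed start, counted in both libraries, 41 (45.1%) lay more than 100 bp upstream at a median position of -503 bp, 49 (53.8%) more than 100 bp downstream at a median of 299 bp, and 1 (1.10%) within 100 bp, in Srsf1 at 8 bp past the start. Over all genes 36.9% lay upstream, 58.1% downstream and 5.01% within 100 bp. The 98 H3K27ac summits were placed alike, with 44 upstream, 51 downstream and 3 within 100 bp, beside 33.8%, 60.9% and 5.31% over all genes. Several regions per gene were common. Counted over both ends, 17 of the 29 genes with CHD7 at an end had 2 or more CHD7 regions at their ends, beside 24% of all genes with CHD7 there, and 17 of 28 had 2 or more H3K27ac regions, beside 26.8%. For CHD7 in Hnrnpa2b1, Hnrnpa3, Hnrnpdl, Hnrnpl, Srsf1 and Srsf11 the count came from a single region at the 5′ end and a single region at the 3′ end. Where CHD7 and H3K27ac regions overlapped at an end, their summits were a median of 37 bp apart (37 pairs), beside 64.5 bp over the 8241 pairs of all genes. Srsf6 is an example, with CHD7 at 4.83 and 4.81 downstream of the start and at 2.81 and 2.88 upstream, and with H3K27ac at 9.20 and 9.13 downstream and at 5.75 and 6.31 upstream.

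**Figure D2:**
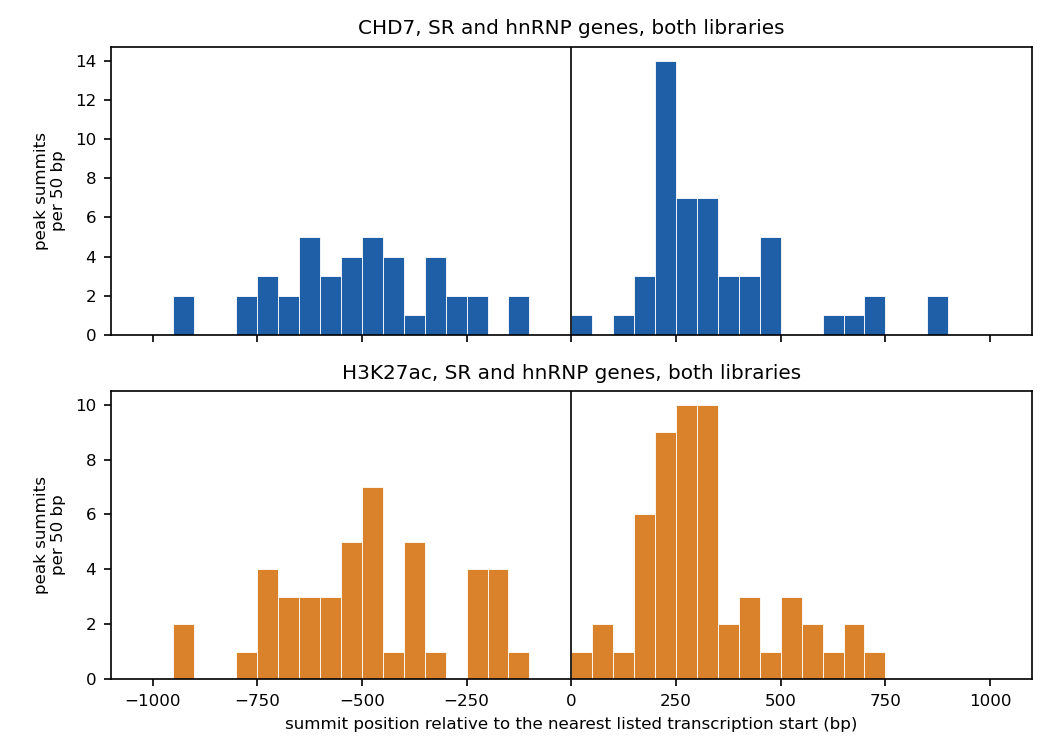
Number of peak summits per 50 bp against their position relative to the nearest listed transcription start (bp, negative values upstream) for SR and hnRNP genes, with CHD7 above and H3K27ac below and both libraries pooled. Of 91 CHD7 summits 1 and of 98 H3K27ac summits 3 lie within 100 bp of the start, and the rest form a narrower downstream and a broader upstream group.

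At the 3′ ends CHD7 was found in many of these genes, while H3K27ac, rare there over all genes, was not. This comparison was chosen after the data had been seen, and used the 27 genes of at least 3 kb with 1 strand, so that both ends could be told apart. CHD7 lay within 1 kb of the 3′ end in 12 of 27 (Hnrnpa1, Hnrnpa2b1, Hnrnpa3, Hnrnpdl, Hnrnpf, Hnrnph1, Hnrnpk, Hnrnpl, Srsf1, Srsf11, Srsf3 and Srsf7), beside 6.73% of the 13974 genes of this kind. H3K27ac lay there in 0 of 27, beside 3.85% of all genes. At so low a share the 0 does not set these genes apart. Within 2.5 kb it lay near the 3′ end in 4 of 27, beside 8.34%. By library the members with a CHD7 peak at the 3′ end numbered 13 and 14, and those with an H3K27ac peak or an input peak numbered 0 in each library. That is 13.5 ± 0.707 (SD, n = 2) for CHD7 against 0 for H3K27ac. The exact permutation test of 2 against 2 libraries, two-sided, gave p = 0.333, the smallest it can give. Over all genes 9.57% and 7.95% had a CHD7 peak at the 3′ end in the 2 libraries, and 4.47% and 4.13% an H3K27ac peak. Input peaks lay at the 3′ end of only 0.0286% and 0.0501% of all genes, so their absence at the members says little.

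To leave out 3′ ends close to another gene's start, the count was repeated over genes with no end of another protein-coding gene within 3 kb of their 3′ end. Of 15 such members, 8 had CHD7 there (Hnrnpa3, Hnrnpdl, Hnrnpf, Hnrnpk, Hnrnpl, Srsf1, Srsf3 and Srsf7), beside 3.52% of 10030 genes, and 0 had H3K27ac, beside 1.15%. Among genes that also had both antibodies at a start, the count was 8 of 14, beside 5.43% of 4552 genes. With genes longer than the longest member (39226 bp) also left out, it was 8 of 14, beside 7.41% of 2578 genes. Of all genes with CHD7 at such a 3′ end, 20.1% had H3K27ac there as well, and of the 8 members 0 had it. With so few members, neither this 0 nor the 0 of 15 sets them apart from all genes. Of the other 4 members with CHD7 at the 3′ end, Hnrnph1 ends near Rufy1, Hnrnpa1 near Nfe2, Hnrnpa2b1 near Nfe2l3 and Srsf11 near Ankrd13c.

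**Figure D3:**
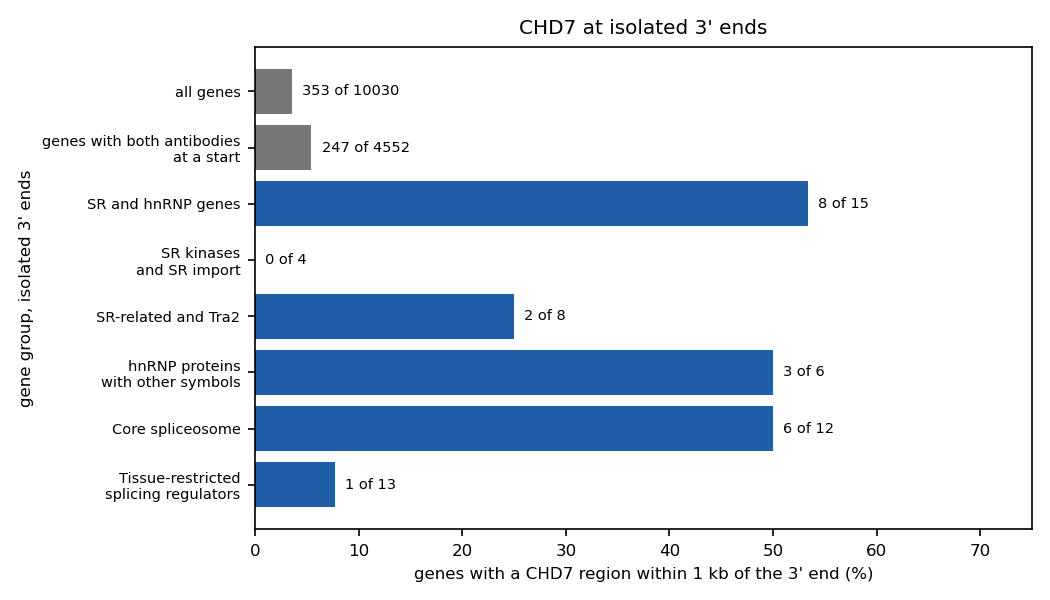
Share of genes with a CHD7 region within 1 kb of the 3′ end (percent), among genes with no end of another protein-coding gene within 3 kb of it, for all genes and genes with both antibodies at a start (grey) and for SR and hnRNP genes and 5 lists of other splicing genes (blue), with the number of genes beside each bar. SR and hnRNP genes stand at 8 of 15, all genes at 353 of 10030, and groups of 4 to 13 genes give only coarse shares.

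Most of the 3′ CHD7 regions were wide, and their folds were modest. Srsf3, the smallest SR protein, had folds of 2.11 and 2.23 over 2854 bp at chr17:29043166-29046019, and only 8 of the 19712 CHD7 regions were wider. That extent merges 3 peaks, as does the Hnrnpk region, and its summits lay 551 and 1394 bp past the end in libraries 1 and 2. Its width is thus not that of a single peak. Hnrnpdl had 2.56 and 2.61 over 2227 bp at chr5:100031915-100034141. Hnrnpa2b1, which binds and sorts RNAs for transport, had 3.18 and 3.33 over 2193 bp at chr6:51458927-51461119, with −log10 q of 31.9 and 37.7, the strongest support among the 12. The widest region thus had the lowest mean fold of the 12.

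Hnrnpk had 3.29 and 3.20 over 1988 bp at chr13:58388874-58390861, Hnrnpa3 2.98 and 2.91 over 1743 bp, and Hnrnph1 3.39 and 3.51 over 1728 bp. Hnrnpa1, an abundant repressor of exon inclusion, had 3.17 and 3.21 over 1507 bp at chr15:103247098-103248604. Both libraries gave nearly the same fold in each of these 4 genes, with Hnrnph1 showing the largest SD, 0.0866. Srsf1 had 2.83 and 2.82 over 1134 bp, Srsf11 2.95 and 2.68 over 850 bp, and Hnrnpf 3.01 and 2.16 over 674 bp. Srsf7 had 2.30 and 2.56 over 648 bp, with −log10 q of 3.16 and 5.09, of which the first was the lowest of the 12 regions. The narrowest region was at Hnrnpl, with 2.54 and 2.26 over 570 bp. Those of Srsf7, Hnrnpf and Hnrnpl were narrower than the median of all CHD7 regions, 682 bp.

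Of the 12 regions, 7 lay wholly past the annotated 3′ end, 4 ran across it and 1, in Srsf7, lay wholly inside the gene. In 11 of them both summits lay past the end, between 34 and 1480 bp beyond it. At least 1500 bp were covered by 7 of the 12, by 0 of the members' 35 CHD7 regions at 5′ ends, by 2.63% of all CHD7 regions, and by 8.94% of the 358 CHD7 regions at the 3′ ends of all genes without a neighbour. The median width was 1617.5 bp at the members' 3′ ends and 656 bp at their 5′ ends, beside 839.5 bp at the 3′ ends of all genes without a neighbour. The members' 12 regions include those of Hnrnph1, Hnrnpa1, Hnrnpa2b1 and Srsf11, which end near another gene, so these sets are not alike. Of the regions without a neighbour, those of Srsf3, Hnrnpdl, Hnrnpk and Hnrnpa3 covered at least 1500 bp, and those of Srsf1, Hnrnpf, Srsf7 and Hnrnpl less. The median mean fold was 2.82 at the members' 3′ ends and 3.30 at their 5′ ends. Each 3′ region stands on the peaks of both libraries, but at this fold the calls depend on the q threshold: where −log10 q had to be 10 or higher, 5 of the 27 genes kept a region, beside 1.59% of all genes.

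**Figure D4:**
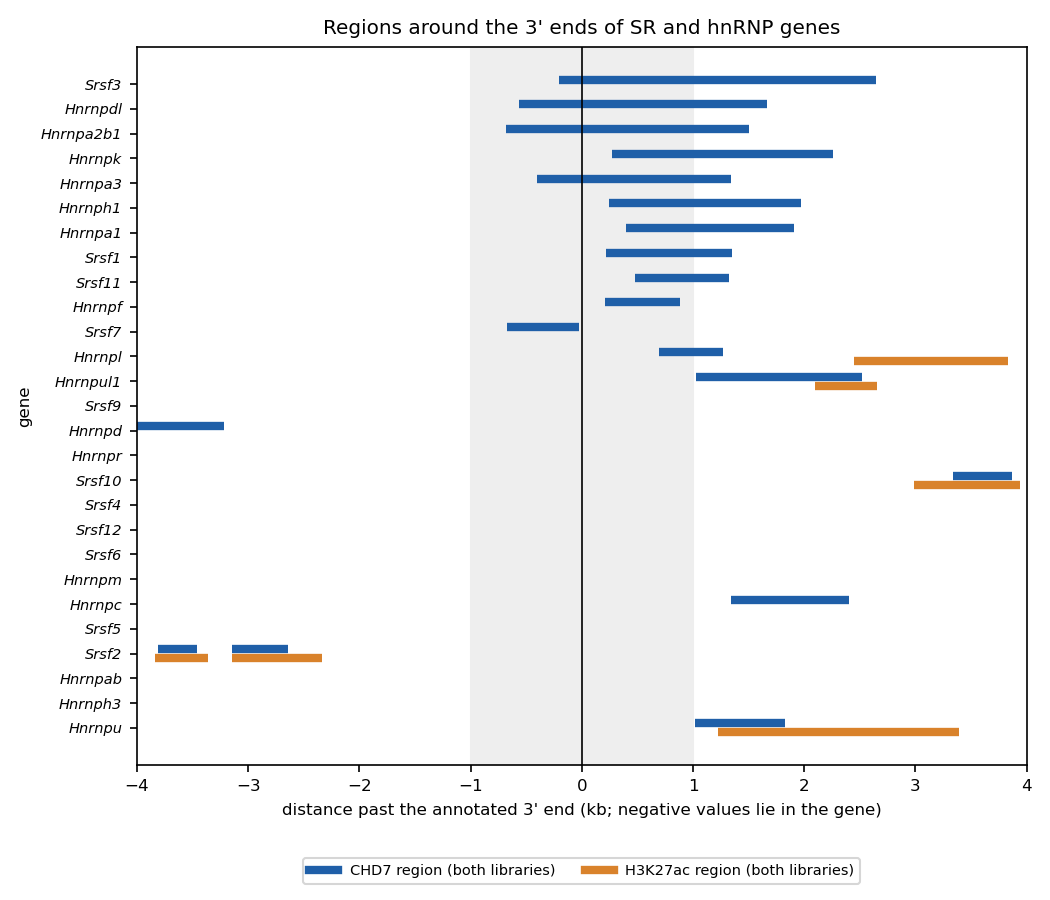
Extent of CHD7 (blue) and H3K27ac (orange) regions around the annotated 3′ ends of the 27 SR and hnRNP genes with both ends told apart, as distance past the 3′ end in kb, with the window of 1 kb to either side in grey. In 12 genes a blue bar reaches the grey window, in 7 of them 1500 bp long or more, and no orange bar does.

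At the 5′ ends 34 of the members' 35 CHD7 regions overlapped H3K27ac, the exception being Hnrnpd, beside 85.1% of the CHD7 regions at the 5′ ends of all genes. At the 3′ ends 0 of 12 did, beside 47.2% at the 3′ ends of all genes and 21.7% at those with no neighbour within 3 kb. This 0 goes largely with the 0 of 27 for H3K27ac at the 3′ end given above, which does not set these genes apart. The genes with CHD7 at the 3′ end had a median length of 10508 bp (12 genes), the 15 without it 17784 bp. At their listed starts the median CHD7 fold was 3.58 in the former and 3.83 in the latter, and the median H3K27ac fold 5.50 and 5.86, with no test between them. The genes of highest H3K27ac, Hnrnpm, Srsf5 and Srsf6, had no CHD7 region at the 3′ end, although library 2 had a peak at Hnrnpm, while Srsf7, which had a higher CHD7 fold at its start than Srsf6, did have one. Srsf4 and Srsf10 likewise had a 3′ peak in 1 library, library 2 and library 1. Hnrnpc missed the 1 kb window, with a CHD7 region of 3.00 and 2.88 over 1057 bp that starts 1346 bp past its 3′ end and held no H3K27ac. Just outside the window as well, CHD7 regions started 1018 bp past the end of Hnrnpu (mean fold 2.01) and 1029 bp past that of Hnrnpul1 (mean fold 4.65). Both overlapped H3K27ac, and other genes end within 3 kb there (Cox20 and Ccdc97). Just inside it, the region of Hnrnpl starts 698 bp past the end.

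Away from annotated gene ends, 17 CHD7 and 11 H3K27ac regions were assigned to these genes. The CHD7 count rests on the need for a peak in both libraries, since leaving out library 1 or library 2 gave 26 regions. CHD7 lay in the gene body of 8 of 31, beside 14.9% of all genes, and H3K27ac in that of 7 of 31, beside 12.1%. Because these genes are short, with a median length of 11272 bp beside 17574 bp, the counts were also set against length: 13 CHD7 regions over 482.816 kb gave 0.269 per 10 kb, beside 0.0477 over all genes, and 8 H3K27ac regions gave 0.166, beside 0.0349. All 8 H3K27ac regions and most of the 13 CHD7 regions had summits within 1 kb of a listed start. The members' rates thus largely count regions at starts and not sites deep in genes. The summed length of all genes also includes genes of up to 2270506 bp, so the rates are not of like genes. Those of Hnrnph1, Hnrnpf, Hnrnpul1 and Hnrnpl and that of Srsf11 at chr3:158031028-158031755 lie at a start more than 1 kb from the annotated end. In Hnrnpu a CHD7 region of 3.87 and 3.66 overlapped H3K27ac of 5.22 and 4.46, with CHD7 summits 398 and 407 bp past its listed start. In Srsf1 CHD7 of 4.27 and 2.87 lay under the further H3K27ac region, with CHD7 summits 638 and 669 bp past its listed start. Hnrnpul1 had H3K27ac of 5.96 and 5.77 just past its listed start, without overlapping CHD7. Of the 13 CHD7 regions in gene bodies 7 overlapped H3K27ac, beside 44.6% over all genes.

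Regions between genes were few. CHD7 was assigned as nearest within 100 kb to 4 of 31 genes (Hnrnpc, Hnrnph1, Hnrnpu and Srsf9), beside 11.9% of all genes, and H3K27ac to 3 of 31 (Hnrnph1, Hnrnpu and Srsf9), beside 8.35%, shares close to the background. The strongest was 29477 bp from Hnrnpu at chr1:178368368-178369572, with CHD7 of 4.02 and 4.47 and H3K27ac of 5.76 and 4.20. All 3 H3K27ac regions overlapped CHD7, and the CHD7 region without H3K27ac was that past the end of Hnrnpc. Nearness does not show which gene such a region acts on.

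Other genes of the splicing machinery, from lists drawn up by function, gave the setting. Of 9 kinases and import factors of SR proteins, 8 had CHD7 and 8 H3K27ac at an end. The highest were Clk2 and Clk1, kinases that phosphorylate SR proteins, with CHD7 folds of 6.41 and 6.21 and of 4.76 and 5.87, and Srpk2, another such kinase, had neither antibody. The Clk2 region lay at its 3′ end, with an end of another protein-coding gene within 3 kb, so it cannot be assigned to Clk2 alone. All 14 SR-related genes had both, led by Rbm39, a U2AF-related splicing coactivator, with 7.10 and 6.95, and Tra2b, an exon enhancer binder, with a mean of 5.05. Of 13 hnRNP proteins with other symbols, 11 had CHD7 and 13 H3K27ac. Ptbp2, the neuronal relative of Ptbp1, and Taf15 had no CHD7. Of 20 core spliceosome genes, 19 had each antibody, led by U2af2, which recognises the polypyrimidine tract, with 5.79 and 8.21. Snrpa, a protein of the U1 particle, had 6.40 and 5.66, Sf3a3 had no CHD7 and Snrpd2 no H3K27ac. Of 21 tissue-restricted regulators, 8 had CHD7 and 8 H3K27ac. Elavl4, a neuronal RNA-binding protein, had CHD7 of 4.74 and 5.62, while Nova2, Rbfox1 and Esrp1 had no CHD7 at an end. The background of these counts is the same as above, 46.2% of all genes for CHD7 and 49.3% for H3K27ac.

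The 3′ CHD7 regions were not limited to SR and hnRNP genes. Among genes with no neighbour at the 3′ end, CHD7 lay there in 6 of 12 core spliceosome genes (Snrpa, Snrpd3, U2af1, Sf1, Sf3b1 and Sf3b3), in 3 of 6 hnRNP proteins with other symbols (Ptbp1, Ewsr1 and Khsrp), in 2 of 8 SR-related genes (Tra2a and Son), in 0 of 4 kinases and import factors and in 1 of 13 tissue-restricted regulators (Nova1). Over all genes of this kind the CHD7 share was 3.52%, and the counts of 0 of 4 and 1 of 13 cannot be told from it. H3K27ac lay there in 0 genes of each of these lists, beside 1.15% of all genes, too low a share for these zeros to set the lists apart. Sf1, the branch point binding protein, had 3′ CHD7 folds of 2.29 and 2.10 over 1472 bp, and Ewsr1 2.45 and 2.26 over 1475 bp. The SR and hnRNP genes were thus not set apart from the other general splicing genes by these counts, and no test was made between the lists.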

How the data were processed

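Chromatin from CHD7, H3K27ac and input libraries, 2 each, was analysed from peak lists that the authors deposited, 1 list per library. Tools listed in the submitters' processing notes are MACS2 2.1.2, Picard, Bowtie2 2.3.3.1 and bcl2fastq 2.18.0.12, with build mm10. Whether input was the control of the calls was not given in the sources used here. In the deposited lists each peak has a fold enrichment (a ratio), the p-value and q-value as −log10, and a score. Fold and q were taken as the authors computed them, to describe and filter peaks only. The lists hold no counts, so depth is unknown and no counting interval was given.

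List entries sharing start and end, 1 per summit, became a single peak that took the largest fold and q. Regions were merged overlapping peaks (at least 1 bp) present in both libraries of an antibody. Genes, without strand, came from the RefSeq table of GRCm38.p6, and 105 with coordinates of unplaced sequence, starting below position 3000000, were left out, leaving 20560. Strand and starts came from the RefSeq promoter table (16457 genes). A distal region was more than 1 kb from every protein-coding gene end, and was assigned to the gene it lay in or to the nearest within 100 kb. Genes are not replicates and were not tested; the 1 test is an exact permutation test over libraries. Scripts ran in Python 3.11.15 with SciPy 1.17.1 and matplotlib 3.10.9, and region merging and gene assignment were tested on simulated peaks.

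The members, the lists, the motifs and the rule for named genes were chosen with earlier results of these data known. The rule named members without a region, the 8 highest and 4 lowest by mean fold of each antibody, the 6 highest distal regions, regions that do not overlap, shared starts, and up to 4 genes of each other list. One gene that the rule names is not reported here. The counts by listed start, the work on summits, widths and 3′ ends and the genes named there were added after seeing the data. Alternatives were a window of 500 bp or 2.5 kb, −log10 q of at least 10, regions in either library, each library left out, regions clear of input peaks, and others given with the sensitivity results.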

Additional observations from a re-analysis of the deposited data

How the results depend on the processing

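Over 68 alternatives, 13 moved a count by more than 1.5 times or a median by more than its SD between libraries, and 55 did not. Among the latter, a window of 500 bp gave 24 distal CHD7 regions instead of 17. With a −log10 q of at least 10, CHD7 was at an end of 17 genes instead of 29 (11.2% of all genes), overlapped H3K27ac in 15 instead of 26 (8.37%), had 3 distal regions instead of 17, had a median fold of 4.16 instead of 3.51 (4.80 over all genes) and was at the 3′ end of 5 genes instead of 12 (1.59%). A window of 2.5 kb gave 11 distal CHD7 and 5 distal H3K27ac regions, a median H3K27ac fold of 5.75 and H3K27ac near the 3′ end of 4 genes instead of 0 (8.34% of all genes), where the wider window holds more sequence. Regions found in either library gave 31 distal CHD7 regions. Leaving out 1 CHD7 library gave 26 distal CHD7 regions in both cases, a median CHD7 fold between 3.49 and 3.72, CHD7 at an end of 29 to 30 genes and at the 3′ end of 13 to 14. Except for the wider window and the filter on q, whose construction alters what is counted, the cause was not tested.

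No paired analysis was possible because the results are counts and medians of genes and not a fit over libraries, and the 1 test between libraries is too small to be blocked. The 3′ end results and their alternatives were chosen after seeing the data. Limits are the missing read counts, 2 libraries per antibody, annotated ends that can differ from the ends used in these cells, and starts shared with neighbouring genes.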
